A study of Mus musculus with 18 samples.

Results

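The 9 genes described here encode enzymes of the tricarboxylic acid (TCA) cycle: Cs, Idh3a, Idh3b, Idh3g, Ogdh, Dlst, Suclg1, Fh1 and Mdh2. They were chosen by name, as symbols listed in all 18 expression files, and make up 9 of the 45151 symbols that the files of all depots share. RNA-seq libraries had been prepared from wild-type male C57BL/6J mice that were 16 weeks old and ate regular chow, and the labels give no drug or transgene for any group. Inguinal white fat (iWAT, 6 samples) and epididymal white fat (eWAT, 6 samples) were represented by mature adipocytes that had been released with collagenase I and collected as the floating layer. Brown adipose tissue (BAT, 6 samples) was frozen and used whole, so that its RNA also includes that of vessels, blood and stroma. Any comparison with BAT is thus also one between whole tissue and digested cells, which cannot be told apart, and in these bulk samples fewer cells of a type cannot be told apart from less RNA per cell. The study used these libraries to ask which receptors fat cells express. The comparison below asks how the transcripts of a central mitochondrial pathway differ between the depots.

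The TCA cycle is the pathway of the mitochondrial matrix in which acetyl-CoA from glucose, fatty acids and amino acids is oxidised to carbon dioxide, with the electrons passed to NADH and FADH2 for the respiratory chain. Brown adipocytes are rich in mitochondria and use this chain to produce heat through the uncoupling protein UCP1, whereas white adipocytes hold fewer mitochondria and use part of the cycle, through export of citrate, to build fatty acids. Cs makes citrate from acetyl-CoA and oxaloacetate. Idh3a encodes the catalytic subunit and Idh3b and Idh3g the accessory subunits of the NAD-linked isocitrate dehydrogenase. Ogdh and Dlst encode the E1 and E2 components of the 2-oxoglutarate dehydrogenase complex, Suclg1 the alpha subunit of succinyl-CoA ligase, Fh1 fumarase, and Mdh2 the mitochondrial malate dehydrogenase that closes the cycle.

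The promoters of the 2 genes with the largest and the 2 with the smallest difference between BAT and iWAT are shown because all 9 genes moved together between these depots. In the RefSeq promoter table, 8 of the 9 genes matched by symbol, all but Idh3a. Each stretch runs from 80 bases before to 20 bases after the annotated start (build GRCm38.p6) and is written 5′ to 3′ on the strand of the gene. Capitals mark words searched for on both strands: GGGCGG (SP1), CCAAT (the box of that name), CCGGAAG (ETS factors such as GABPA) and TGCGCA (NRF1 core).
Suclg1, chr6:73248425-73248524, plus strand: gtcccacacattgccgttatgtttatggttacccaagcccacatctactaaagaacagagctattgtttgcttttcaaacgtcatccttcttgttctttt
Idh3b, chr2:130284432-130284531, minus strand: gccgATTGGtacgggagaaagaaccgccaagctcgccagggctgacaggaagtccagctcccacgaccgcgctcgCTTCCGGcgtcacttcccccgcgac
Cs, chr10:128337647-128337746, plus strand: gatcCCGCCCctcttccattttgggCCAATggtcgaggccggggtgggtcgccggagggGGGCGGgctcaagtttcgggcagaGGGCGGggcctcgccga
Mdh2, chr5:135778569-135778668, plus strand: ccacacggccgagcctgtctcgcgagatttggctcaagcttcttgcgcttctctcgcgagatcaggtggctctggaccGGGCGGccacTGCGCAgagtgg
The stretch of Suclg1, the gene with the largest difference, held 40.0% G and C bases and no searched word, whereas those of Idh3b, Cs and Mdh2 held 67.0%, 72.0% and 65.0%. Listed transcripts of Suclg1 start between 73198376 and 73198672 on mm9, further apart than the stretch is long. Its letters thus describe 1 annotated start only. Over the whole window of 250 bases before to 50 after the start, GGGCGG was found in 5 of the 8 promoters (Cs, Dlst, Fh1, Mdh2 and Ogdh), against 35.7% of all 32851 promoters in the table. CCAAT was found in 4 (Cs, Fh1, Idh3b and Ogdh), against 37.4%, and CCGGAAG in 3 (Dlst, Idh3b and Idh3g), against 8.86%. TGCGCA was found in Mdh2 and Ogdh, against 7.76% of all promoters, and AAGATGGCG, the YY1 word, in Idh3g, against 1.40%. Of the words for estrogen-related receptors, AAGGTCA was found in Ogdh, against 4.72%, and the longer TCAAGGTCA, which contains it, in 0 of the 8, against 0.423%. The TATA box word TATAAA was also found in 0 of the 8, against 13.6%. No searched word was thus found in all 8 promoters, and a match is a description of letters and not a sign of binding.

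The reads behind the values were between 22929576 and 34512470 per sample. Every sample had at least 1533 reads on the row used for each of the 9 genes. Markers matched the labels: the summed RPKM (the read count divided by row length and by the total reads of the sample) of 6 brown adipocyte markers was 2085 to 2668 in BAT, 24.9 to 34.2 in iWAT and 5.50 to 9.06 in eWAT. The summed RPKM of 4 blood markers was 406 to 1179 in BAT, 166 to 1111 in eWAT and 66.3 to 477 in iWAT, so that the ranges of the depots overlapped. The 6 macrophage markers detected, of which none was at 0, summed to 22.9 to 126 RPKM in iWAT, 124 to 1809 in eWAT and 20.7 to 49.1 in BAT. For 5 endothelial markers the sums were 23.2 to 135, 77.7 to 204 and 43.1 to 80.6, in the same order. For 5 fibroblast and preadipocyte markers they were 55.1 to 96.8, 71.7 to 177 and 31.6 to 42.7. Of these 5, however, 3 were called higher and 2 lower in BAT than in iWAT. The white preparations thus also held RNA of other cells. Some samples stood apart, named here by the number in their titles. The highest of these macrophage values, 1809 RPKM, was that of eWAT 15, against 124 to 432 in the other eWAT samples. In BAT 12 the 6 skeletal muscle markers summed to 1389 RPKM, against at most 122 in the other BAT samples. The 5 epididymis markers reached 72.9 RPKM in eWAT 14, and the second highest eWAT sample, eWAT 15, had 62.1, against a depot median of 1.76.

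Reads had been counted per gene over all its exons in iWAT and BAT, but transcript by transcript in eWAT. For the 9 genes, the merged row was between 1.29 times (Fh1) and 2.74 times (Dlst) as long as the most-read transcript, and the eWAT files list between 5 (Idh3b) and 17 (Ogdh) transcripts per gene. Values of iWAT and BAT, from merged rows, can thus be set side by side like for like, whereas those of eWAT, from the most-read transcript, cannot.

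All 9 TCA cycle genes were higher in BAT than in iWAT adipocytes. The differences ran from 3.09-fold (Mdh2) to 7.49-fold (Suclg1), with a median of 4.99-fold, or 2.32 on the log2 scale. By edgeR's quasi-likelihood test the largest adjusted p of the 9 was 1.05e-09. Among all 19733 rows tested, 6626 were called higher in BAT (33.6%) and 6711 lower (34.0%), with a median log2 difference of -0.01. The RPKM ranges of iWAT and BAT were separate for 9 of the 9 genes, and the share of all rows with separate ranges was not counted.

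Cs lies on the plus strand of chromosome 10 of mm9, from 127774790 to 127799535. Its RPKM was 61.6, 69.8 and 73.1 (lowest, median and highest of 6 samples) in iWAT, and 184, 194 and 209 in BAT. In eWAT it was 81.9, 119 and 138. The 3 depots did not overlap. Counts of Cs were 3.41-fold higher in BAT than in iWAT, a log2 difference of 1.77 ± 0.09 (SE, as for all values written so below), the second smallest of the 9.
The subunits of isocitrate dehydrogenase were the next step measured. Idh3a (chromosome 9, 54434141 to 54452469, plus strand) had an RPKM of 32.6, 40.8 and 46.3 in iWAT, and 138, 159 and 168 in BAT. In eWAT it had 43.2, 62.6 and 77.5, a range that overlapped that of iWAT. The accessory subunit Idh3b (chromosome 2, 130105045 to 130110283, minus strand) had 29.4, 31.1 and 35.1 in iWAT, and 151, 156 and 162 in BAT. BAT samples agreed closely in Idh3b, with a coefficient of variation of 2.36%. Its eWAT range, 38.1, 50.1 and 57.2, lay between those of the other depots. Idh3g (chromosome X, 71022360 to 71032236, minus strand) had 39.4, 42.1 and 48.3 in iWAT, and 165, 178 and 184 in BAT. In eWAT it had 25.9, 35.0 and 40.1, so that for this gene the iWAT median was above that of eWAT. From iWAT to BAT the log2 differences of the 3 subunits were 2.21 ± 0.11 for Idh3a, 2.57 ± 0.08 for Idh3b and 2.32 ± 0.08 for Idh3g.
Ogdh, the E1 component that decarboxylates 2-oxoglutarate, spans 6191600 to 6259097 on the plus strand of chromosome 11. Its RPKM was 22.9, 24.6 and 26.4 in iWAT, and 97.1, 107 and 108 in BAT. In eWAT it was 31.1, 42.1 and 49.1. Dlst, the E2 component that hands the succinyl group to CoA, lies on the plus strand of chromosome 12 from 86451783 to 86475795. It had 20.5, 21.3 and 23.6 in iWAT, and 81.7, 90.7 and 98.0 in BAT. In eWAT it had 37.6, 48.9 and 51.6. For both components the 3 depots were apart, and the log2 differences between BAT and iWAT were alike at 2.34 ± 0.09 and 2.32 ± 0.09.
The product of Suclg1 (chromosome 6, 73198376 to 73226901, plus strand) is shared by the ATP-forming and the GTP-forming succinyl-CoA ligase. Suclg1 had the lowest mean RPKM of the 9 in iWAT. Its RPKM there was 15.5, 18.5 and 21.2. In BAT it was 101, 115 and 124, a log2 difference of 2.91 ± 0.09. In eWAT it was 30.7, 36.5 and 39.5. It showed the largest difference of the 9 between BAT and iWAT.
Fh1 (chromosome 1, 177530505 to 177555766, minus strand), which hydrates fumarate to malate, had 23.0, 25.3 and 27.8 in iWAT, and 86.5, 91.7 and 94.9 in BAT. In eWAT it had 18.4, 24.7 and 29.8, a range that contained the whole iWAT range. Its log2 difference between BAT and iWAT was 2.10 ± 0.07. Mdh2 (chromosome 5, 136254350 to 136266268, plus strand) had 43.9, 50.9 and 60.9 in iWAT, and 123, 132 and 142 in BAT. The eWAT values of Mdh2 were 88.5, 106 and 135, so that its highest eWAT sample was above its lowest BAT sample. Its log2 difference between BAT and iWAT was the smallest of the 9, at 1.63 ± 0.08.

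**Figure D1:**
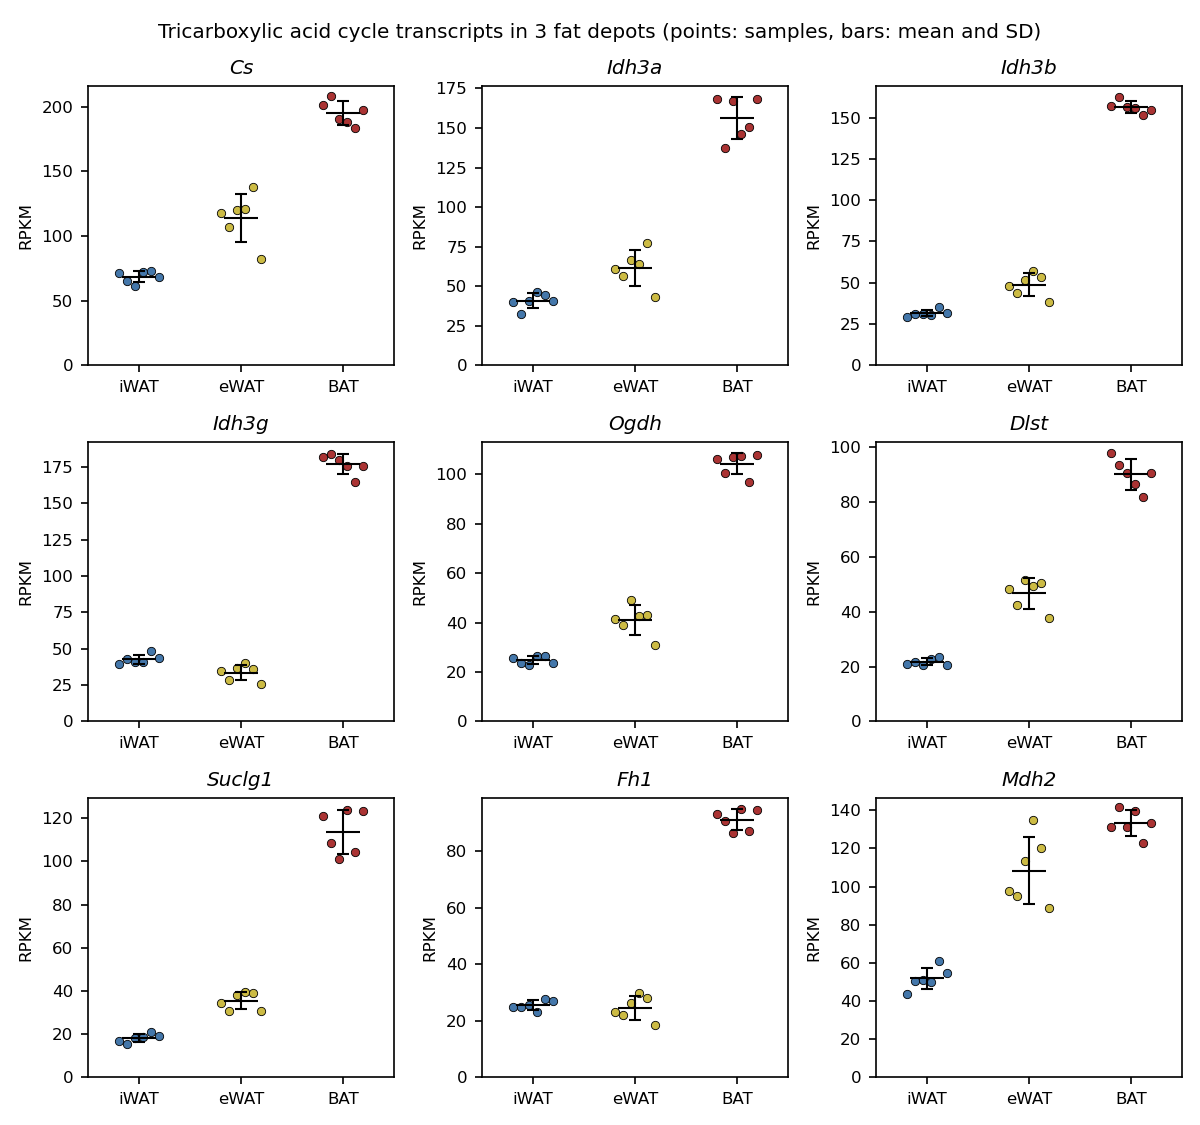
RPKM (vertical axis) of the 9 genes in iWAT, eWAT and BAT; points are the 6 samples of a depot, and bars give the mean and SD. BAT samples lie above all iWAT samples for 9 of 9 genes and above all eWAT samples for 8 of 9, Mdh2 being the exception. The eWAT values rest on shorter rows, and the share of all symbols separated in this way was not counted.

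Per length, Cs was the most abundant of the 9 transcripts in every depot, at 68.6 ± 4.41 RPKM (mean ± SD, n = 6) in iWAT, 114 ± 18.6 in eWAT and 195 ± 9.17 in BAT. In iWAT no Cs sample overlapped those of the next gene, Mdh2, whereas in eWAT and BAT the ranges of Cs and its next gene overlapped. The order of the others differed between the depots. Merged rows of iWAT and BAT were 1.29 (Fh1) to 2.74 (Dlst) times as long as the eWAT transcripts used. The order of genes, and how it differed between eWAT and the other depots, thus rests on these row lengths. By its mean, Mdh2 came next to Cs in iWAT and eWAT but below the Idh3 subunits in BAT, where it had 133 ± 6.81 against 177 ± 6.81 for Idh3g, 156 ± 13.4 for Idh3a and 156 ± 3.68 for Idh3b. Its range overlapped that of Idh3a in BAT and that of Idh3g in iWAT, so that the order of these pairs was not set beyond their spread. Suclg1 was the lowest in iWAT at 18.2 ± 1.96, next to Dlst at 21.7 ± 1.28, with overlapping ranges. Fh1 was the lowest in eWAT at 24.6 ± 4.19, and Dlst in BAT at 90.2 ± 5.62, where its range overlapped that of Fh1 at 91.0 ± 3.68. In iWAT, Ogdh at 24.7 ± 1.57 and Fh1 at 25.5 ± 1.70 could not be put in order beyond their spread.

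The size of the difference between BAT and iWAT depended in part on the scaling. A row named COX2 on chromosome 1 held 9.68% to 10.5% of the BAT reads and 2.92% to 5.80% of the iWAT reads. It was taken to be a nuclear copy of mitochondrial DNA that draws mitochondrial reads, which was not tested. The TMM factors were 0.849 to 0.997 in BAT and 1.05 to 1.17 in iWAT. Without TMM factors the median of all rows moved to -0.27, the calls split into 4732 higher and 9107 lower, and the 9 genes were 1.36 to 2.64 higher in BAT on the log2 scale. The 9 genes remained called higher there, with a median of 2.05. Without BAT 12, the sample with the most muscle reads, the range of the 9 was 1.67 to 2.95.

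Other subunits of the cycle, 7 genes, were also called higher in BAT than in iWAT by edgeR's quasi-likelihood test, 7 of 7 against 33.6% of all rows. Their median log2 difference was 1.99, beside 2.32 for the 9 genes and -0.01 for all rows. Sucla2 and Suclg2, the beta subunits that pair with Suclg1 to form ATP or GTP, had log2 differences of 3.01 ± 0.09 and 0.71 ± 0.08, the largest and the smallest of the 7. The RPKM of Sucla2 was 27.3, 30.0 and 33.2 (lowest, median and highest of 6 samples) in iWAT, and 182, 200.4 and 222 in BAT. That of Suclg2 was between 13.7 and 16.3 in iWAT and between 18.6 and 21.8 in BAT, so that neither gene overlapped between the depots. The subunits of succinate dehydrogenase, which is also complex II of the respiratory chain, gave 1.99 ± 0.08 (Sdha), 2.30 ± 0.09 (Sdhb), 1.496 ± 0.085 (Sdhc) and 2.33 ± 0.10 (Sdhd). Dld, the E3 component shared by the 2-oxoglutarate and pyruvate dehydrogenase complexes, gave 1.90 ± 0.10.

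**Figure D2:**
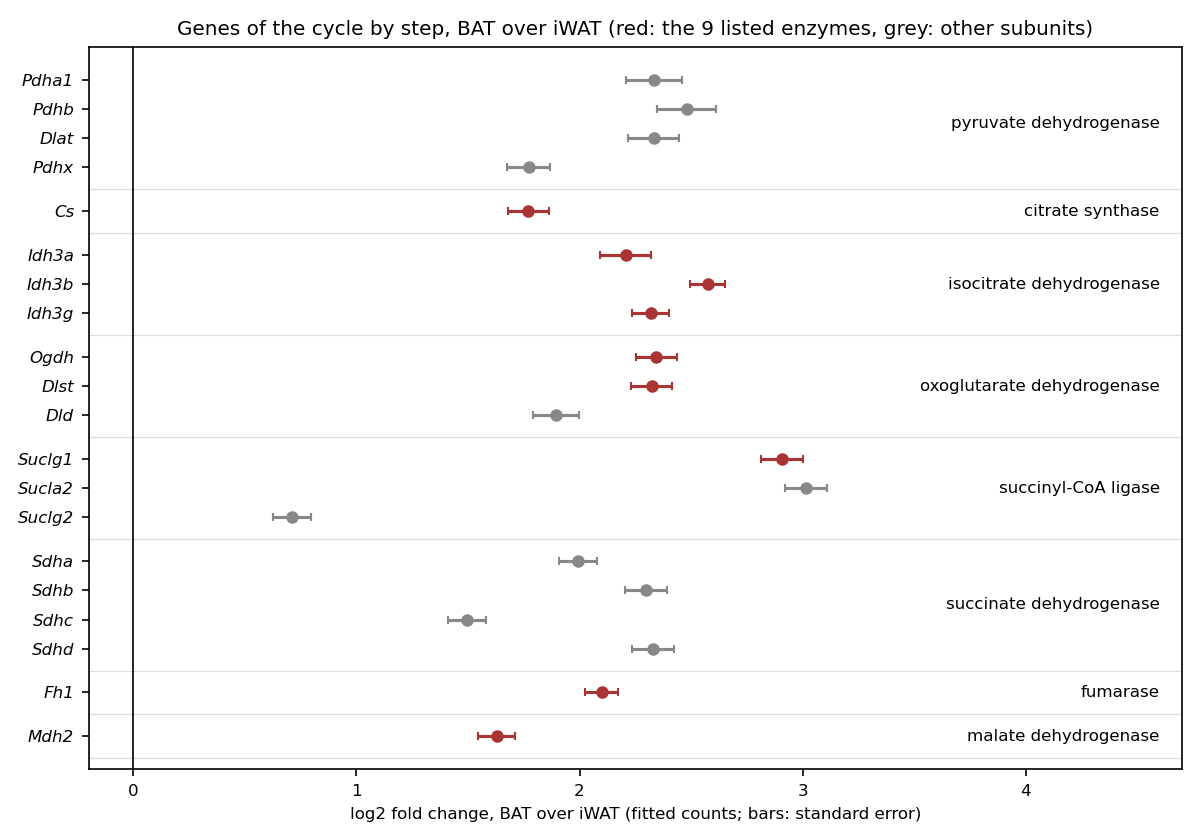
Log2 fold change of BAT over iWAT (horizontal axis, with standard error) for 16 genes of the TCA cycle and 4 of pyruvate dehydrogenase, ordered by step; red points are the 9 listed enzymes and grey points the other subunits. Every gene shown lies above 0, between 0.71 (Suclg2) and 3.01 (Sucla2).

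The pyruvate dehydrogenase complex, which supplies acetyl-CoA from pyruvate, was higher in BAT for 4 of 4 genes. Its members had log2 differences of 2.33 ± 0.13 (Pdha1), 2.48 ± 0.13 (Pdhb), 2.33 ± 0.11 (Dlat) and 1.77 ± 0.10 (Pdhx). The kinases that switch this complex off and the phosphatases that switch it on were mixed. Of these 7, 5 were higher and 2 lower, against 33.6% and 34.0% of all rows. Pdk4, a kinase induced by fasting, was 3.15 ± 0.29 higher in BAT, with an RPKM of 30.1, 43.7 and 109 in iWAT, and 324, 388 and 538 in BAT. Pdk1 and Pdk2 were higher by 1.98 ± 0.13 and 2.02 ± 0.08. In contrast, Pdk3 fell by 3.30 on the log2 scale (SE 0.16), from 2.07, 2.42 and 3.23 RPKM in iWAT to 0.168, 0.211 and 0.256 RPKM in BAT. Its BAT values rest on only 13 to 22 reads per sample, against 154 to 230 in iWAT. Among the phosphatase genes, Pdp2 gave 1.96 ± 0.17, Pdpr, a regulatory subunit, 0.83 ± 0.12, and Pdp1 -0.34 ± 0.12, which no longer passed without BAT 6, 7, 8 or 11.
Of 6 enzymes that carry out related reactions in the cytosol, or with NADP, 3 were called higher and 2 lower in BAT, against 33.6% and 34.0% of all rows, and a difference from the cycle enzymes was not tested. The cytosolic aconitase Aco1 and the cytosolic Idh1 were lower, at -0.44 ± 0.10 and -0.37 ± 0.13, and Idh1 gave -0.24 without BAT 11 and no longer passed without BAT 12. Mdh1, the cytosolic malate dehydrogenase, was 0.49 ± 0.10 higher, and Idh2, the mitochondrial enzyme that uses NADP, 0.94 ± 0.08 higher. Acly, which splits exported citrate for fatty acid synthesis, was 3.05 ± 0.33 higher in BAT. Me1, the cytosolic malic enzyme, did not pass the test at 0.50 ± 0.22 (adjusted p = 0.0594 by edgeR's quasi-likelihood test).
Of 9 genes that refill or drain the cycle, 1 was called higher in BAT and 5 lower, with a median of -0.37. That higher was Got1, the cytosolic aspartate aminotransferase, at 2.37 ± 0.32, with only 30 to 92 reads per iWAT sample. The shares of all rows were 33.6% higher and 34.0% lower, here and for the lists that follow between BAT and iWAT. The pyruvate carboxylase Pcx, which makes oxaloacetate, gave -0.72 ± 0.14, and Me2, a mitochondrial malic enzyme that makes pyruvate, gave -1.05 ± 0.11, the lowest of this list. Me3, another mitochondrial malic enzyme, had 3 to 14 reads per sample in iWAT, 2 to 15 in eWAT and 431 to 859 in BAT. It passed the read filter only through BAT and is not counted here.
Of 6 paralogues and assembly factors tested, 5 were higher and 1 lower. Csl, a paralogue of Cs, was 1.67 ± 0.09 higher in BAT, though its reads may be shared with Cs, since the handling of reads that match both is not stated. Dhtkd1, a relative of Ogdh that acts on 2-oxoadipate, gave -1.81 ± 0.12. Sdhaf1, Sdhaf2, Lipt1 and Lias, which help to assemble succinate dehydrogenase or to attach lipoic acid, gave 1.08, 0.19, 1.29 and 0.53, of which that of Sdhaf2 no longer passed without any 1 of 5 iWAT samples (7, 11, 12, 13 or 15). Ogdhl had too few reads for this comparison.
Of 8 tested regulators of mitochondrial genes, 6 were higher in BAT and 1 lower. Esrrg, an estrogen-related receptor, differed most, by 3.99 ± 0.26, with 28 to 74 reads per iWAT sample. It was followed by the coactivators Ppargc1b at 3.38 ± 0.10 and Ppargc1a at 2.68 ± 0.35, and by Esrra at 2.30 ± 0.09. Tfam, which packages mitochondrial DNA, and Gabpa, an ETS factor, gave 0.91 ± 0.08 and 0.76 ± 0.11. Pprc1 was lower at -0.57 ± 0.24, a call that was lost in 8 of 12 fits without 1 sample, and Nrf1 gave -0.17 ± 0.09 (adjusted p = 0.13 by edgeR's quasi-likelihood test).
The 9 genes were set beside other mitochondrial and metabolic lists as well. Complex I core subunits (6 of 6 higher) had a median log2 difference of 2.08, from 1.72 (Ndufs3) to 2.35 (Ndufv1), with Ndufs7 at 1.99, Ndufs1 at 2.04, Ndufv2 at 2.12 and Ndufs8 at 2.17. ATP synthase subunits (6 of 6 higher) had a median of 1.64, from 0.78 (Atp5c1) to 1.84 (Atp5a1), with Atp5f1 at 1.46, Atp5o at 1.60, Atp5b at 1.67 and Atp5d at 1.79. Most of the 9 cycle enzymes thus had larger differences than these ATP synthase subunits, which was not tested. Fatty acid oxidation genes (8 of 9 higher, 1 lower) had a median of 2.71, from -1.75 for Cpt1a, the carnitine palmitoyltransferase of liver, to 6.22 for Cpt1b, that of muscle and brown fat. The mitochondrial outer membrane and import list (6 of 7 higher) had a median of 0.98, with Vdac3 at 0.72, Timm23 at 0.96, Vdac1 at 0.98, Vdac2 at 1.01, Tomm40 at 1.12 and Timm44 at 1.87, while Tomm20 gave 0.20 and did not pass. Cytosolic glycolysis genes (9 of 10 higher) had a median of 2.21, with Hk2 at 0.23 and Pfkl at 2.52. Levels in this list differed widely, with a median iWAT RPKM of 0.538 for Gapdh (38 to 76 reads) and 240 for Aldoa. Whether the Gapdh row holds all reads of its gene was not tested.

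**Figure D3:**
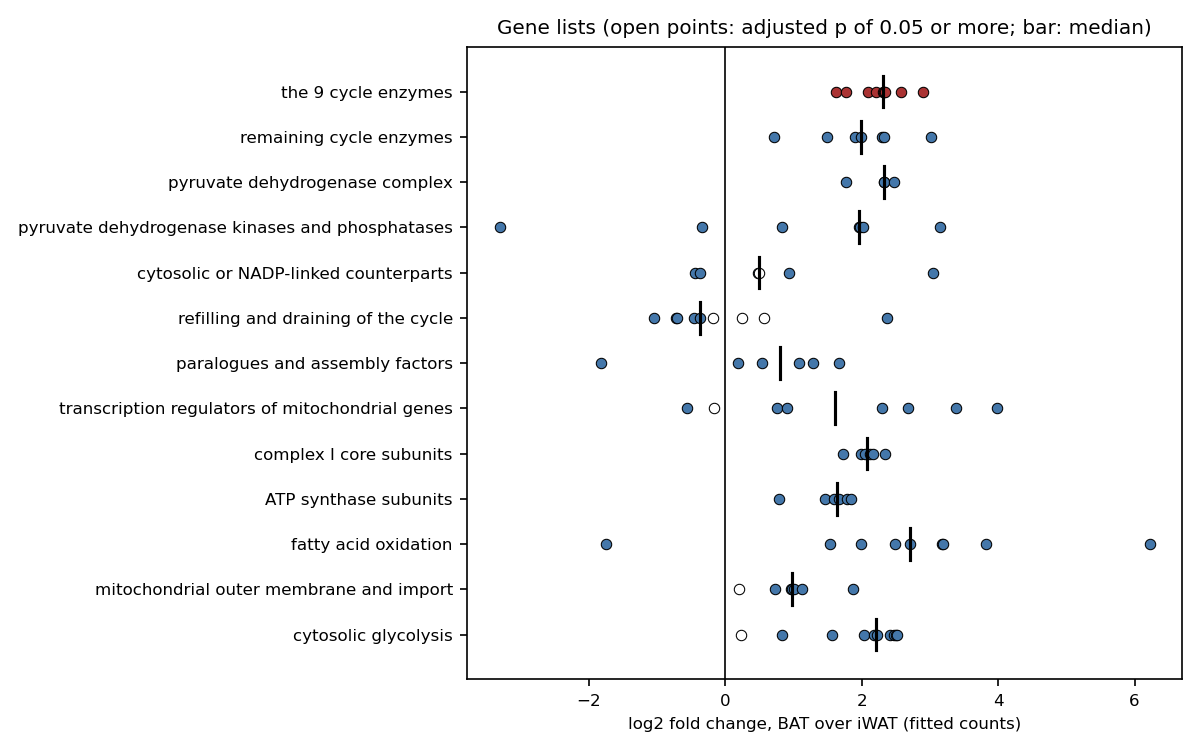
Log2 fold change of BAT over iWAT (horizontal axis) for each gene of the 13 lists; filled points passed an adjusted p of 0.05, open points did not, and the bar is the median of a list. The 9 cycle enzymes lie between 1.63 and 2.91, while the genes that refill or drain the cycle, drawn without Me3, lie on both sides of 0.

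All 9 TCA cycle genes were also higher in BAT than in eWAT adipocytes. By counts of the rows used, the log2 differences ran from 1.91 ± 0.10 (Mdh2) to 3.43 ± 0.10 (Suclg1), with a median of 2.74, or 6.68-fold. The largest adjusted p of the 9 by edgeR's quasi-likelihood test was 8.97e-12, and the same 6 BAT samples served in this comparison and in that with iWAT. Of all 18383 symbols tested, 34.7% were called higher in BAT and 35.6% lower. Since the eWAT rows are shorter, the test was repeated on reads per kilobase. Again 9 of 9 genes were higher in BAT and 0 lower, against 33.0% and 40.9% of all symbols, from 0.99 ± 0.11 (Mdh2) to 3.10 ± 0.12 (Idh3g), with a median of 2.04. Division by row length thus changed the size of the differences and which gene differed most. Per kilobase, Idh3b had 2.37 ± 0.10, Suclg1 2.37 ± 0.10, Fh1 2.58 ± 0.11, Idh3a 2.04 ± 0.14 and Ogdh 2.04 ± 0.11. Dlst and Cs had 1.65 ± 0.10 and 1.47 ± 0.12. The deposited RPKM gave still smaller values, from 0.31 (Mdh2) to 2.41, on the log2(RPKM + 0.1) scale with limma. In that fit the median of all symbols moved to -0.71, with 3270 symbols higher and 11504 lower in BAT. Without eWAT 15, the sample with the most macrophage reads, the count differences ran from 1.86 to 3.40.
These 7 other subunits were higher in BAT than in eWAT for 7 of 7 by counts, with a median of 2.54, from 1.22 ± 0.11 (Suclg2) to 3.56 ± 0.11 (Sucla2). The 4 genes of pyruvate dehydrogenase gave 4 of 4, between 1.93 (Pdhx) and 2.93 (Pdhb). Of the kinases and phosphatases 5 were higher and 2 lower, with Pdk4 at 5.25 ± 0.32 and Pdk3 at -3.86 ± 0.15. The cytosolic or NADP-linked counterparts had 4 of 6 higher by counts, from -0.19 ± 0.12 for Idh1, which did not pass, to 2.95 ± 0.36 for Acly, but 3 of 6 per kilobase, where Mdh1 gave 0.02 ± 0.12. The list of genes that refill or drain the cycle, without Me3, had 1 higher (Pck1, which makes phosphoenolpyruvate, at 0.96 ± 0.24) and 5 lower of 9, with Aldh18a1, which draws glutamate into proline synthesis, at -1.53 ± 0.29. Of 6 paralogues and assembly factors, 5 were higher and 1 lower by counts, with Csl at 2.21 ± 0.11, and 4 were higher per kilobase. Ogdhl, a paralogue of Ogdh that is not counted here, passed the read filter only through the white depots, with 49 to 102 reads per sample in eWAT, 8 to 39 in iWAT and 0 to 7 in BAT. The regulators had 6 of 8 higher, with Ppargc1b at 4.48 ± 0.14. Complex I, ATP synthase, fatty acid oxidation, outer membrane and import, and glycolysis lists had 6 of 6, 6 of 6, 8 of 9, 6 of 7 and 10 of 10 genes higher in BAT by counts, on rows that are longer in BAT. Per kilobase they had 6 of 6, 5 of 6, 8 of 9, 4 of 7 and 9 of 10 higher. Atp5o (-0.22 ± 0.11), Timm23 (-0.19 ± 0.10), Tomm40 (0.24 ± 0.11) and Hk1 (-0.14 ± 0.18) then no longer passed, and Vdac3 turned to lower in BAT at -0.63 ± 0.10. The other subunits of the cycle and pyruvate dehydrogenase kept 7 of 7 and 4 of 4 per kilobase.

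The direction between iWAT and eWAT adipocytes depended on how row length was treated. By counts, 8 of the 9 genes were called lower in eWAT than in iWAT by edgeR's quasi-likelihood test, against 13.4% of all symbols called lower and 12.3% called higher. The median log2 difference was -0.45, from -0.79 ± 0.10 (Idh3g) to -0.23 ± 0.10 (Mdh2), and Mdh2 did not pass (adjusted p = 0.0960). Markers of other cells differed between these depots as well. Of the 6 macrophage markers tested, 4 were called higher in eWAT by counts, from 0.44 ± 0.49 (Cd163, which did not pass) to 3.30 ± 0.63 (Lyz2), with a median of 2.66, while 3 of 5 adipocyte markers were called lower, with a median of -0.38. Without eWAT 15, 8 of the 9 genes were again called lower, from -0.73 to -0.19, and the part of other cells in this difference was not tested. On reads per kilobase, 5 genes were called higher in eWAT, against 29.1% of all symbols, and 2 lower, against 23.0%. Those higher were Dlst at 0.69 ± 0.10, Mdh2 at 0.65 ± 0.11, Suclg1 at 0.55 ± 0.10, Cs at 0.32 ± 0.12 and Ogdh at 0.32 ± 0.11. Those lower were Idh3g at -0.76 ± 0.11 and Fh1 at -0.47 ± 0.10, the genes whose rows differed least in length between the files. Idh3a and Idh3b did not pass, at 0.18 ± 0.13 and 0.21 ± 0.10. In the deposited RPKM, eWAT samples lay above all iWAT samples for 6 of the 9 genes, and the ranges of Idh3a, Idh3g and Fh1 overlapped. The share of all symbols separated in this way was not counted.
In that RPKM fit with limma, however, the median of all symbols was 0.34 higher in eWAT, with 8655 symbols called higher and 988 lower. For 1 of the 9 genes, Idh3g, the direction was lower in eWAT in all of the count, per kilobase and RPKM fits run. Fh1 was lower by counts and per kilobase, gave -0.07 in the RPKM fit, and gave 0.06 with the highest-RPKM transcript. No row used for the 9 genes was the same in both kinds of file. A second Cs row was the same, namely a row of 859 bp on the minus strand (chromosome 10, 127774199 to 127775057), of which 268 bp overlap the start of the Cs row used. It had 420 to 665 reads per iWAT sample and 385 to 539 per eWAT sample. Its log2 difference was -0.48 ± 0.13, lower in eWAT (adjusted p = 0.0165 by edgeR's quasi-likelihood test). It is annotated on the strand opposite to that of the enzyme's transcript. Since the use of strand in counting is not stated, its reads may include some of that transcript. In the count fit, the other subunits of the cycle had 4 of 7 lower in eWAT, pyruvate dehydrogenase 3 of 4 and complex I core subunits 6 of 6. Without eWAT 15 these counts were 4, 0 and 5. Per kilobase, 3 of the other subunits were lower and 2 higher, pyruvate dehydrogenase had 1 higher and 0 lower, and complex I had 3 higher and 2 lower, so that these directions too depended on row length.
The kinases and phosphatases of pyruvate dehydrogenase had 1 of 7 higher in eWAT and 3 lower, with Pdk3 at 0.61 ± 0.12 and Pdk4 at -2.05 ± 0.28 by counts. The counterparts had 3 of 6 lower, with Idh2 at -0.76 ± 0.10. Genes that refill or drain the cycle had 5 higher and 2 lower of 9, and 3 higher without eWAT 15. Of these Got1 differed most, at 1.91 ± 0.47, but by 1.13 without eWAT 15, the sample with its highest RPKM, 15.04 against a depot median of 2.78. Paralogues and assembly factors had 0 higher and 3 lower of 6, and the regulators 4 of 8 lower, with Ppargc1a at -1.45 ± 0.35. ATP synthase had 3 of 6 lower, fatty acid oxidation 8 of 9 lower and 1 higher, outer membrane and import 1 of 7 lower, and glycolysis 2 of 10 lower. Per kilobase, the ATP synthase, outer membrane and import, and glycolysis lists had 3, 3 and 5 genes called higher in eWAT and 2, 1 and 2 lower. Fatty acid oxidation then had 2 higher and 6 lower, the regulators 2 and 4, and the counterparts 1 and 2. Hadhb (0.73 ± 0.11), Esrra (0.81 ± 0.11) and Mdh1 (0.48 ± 0.12) of these lists turned from lower to higher in eWAT. The kinases and phosphatases had 1 higher and 3 lower, the refilling and draining genes 4 and 3, and the paralogues and assembly factors 0 and 4.

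**Figure D4:**
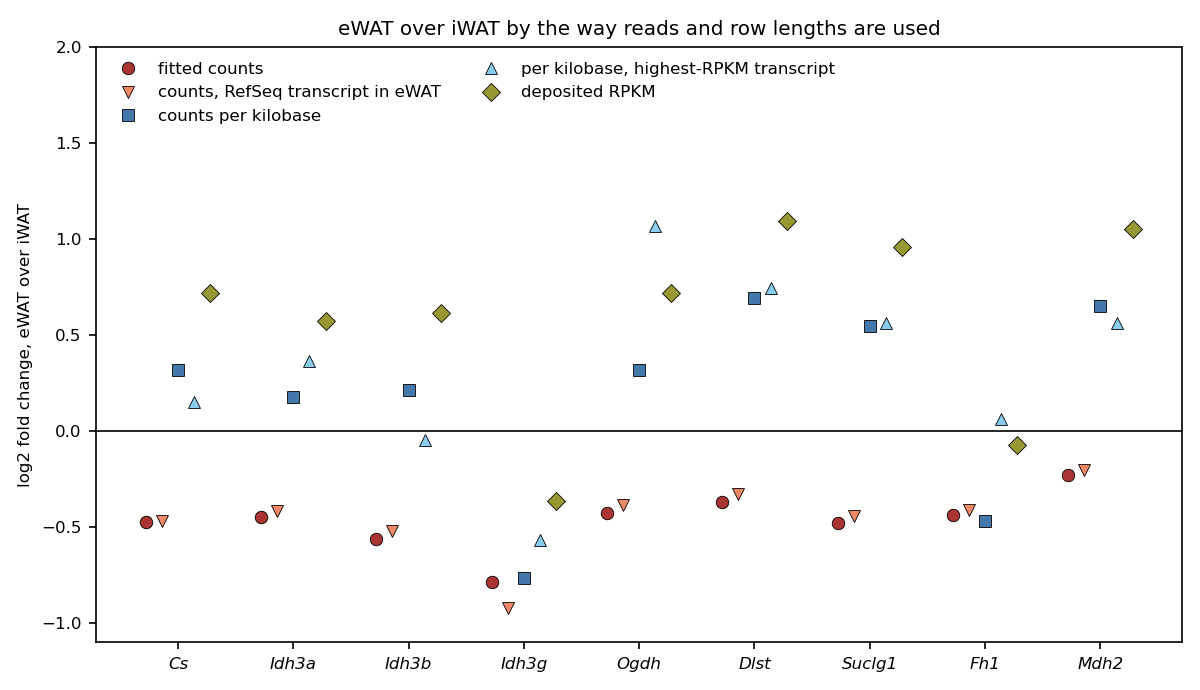
Log2 fold change of eWAT over iWAT (vertical axis) of the 9 genes under 5 ways of using reads and row lengths, given by symbol. Both fits of plain counts lie below 0 for 9 of 9 genes, whereas counts per kilobase lie above 0 for all but Idh3g and Fh1.

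Ratios between subunits of a complex need no scaling between samples. Between BAT and iWAT, where the rows are the same, the log2 RPKM ratio of Idh3b over Idh3a was 0.003 ± 0.142 (SD, n = 6) in BAT and -0.366 ± 0.173 in iWAT, a difference of 0.37 (two-sided exact permutation test, p = 0.00866, adjusted p = 0.0130 over 9 tests). The ranges overlapped, from -0.12 to 0.24 in BAT and from -0.59 to -0.06 in iWAT. Idh3g over Idh3a differed by 0.11 (exact permutation test, p = 0.277, adjusted p = 0.356). Leaving out single samples moved this value from 0.0617 (without iWAT 13) to 0.181 (without iWAT 11), and it passed without iWAT 11 (exact permutation test, adjusted p = 0.0445). Dlst over Ogdh differed by -0.02 (exact permutation test, p = 0.563, adjusted p = 0.633). The ratio of the Ogdh and Dlst components was thus not distinguishable between BAT and iWAT at this spread.
For eWAT these ratios rest on other row lengths. Against BAT, Idh3b over Idh3a differed by 0.33, Idh3g over Idh3a by 1.05 and Dlst over Ogdh by -0.40, BAT minus eWAT, each at the smallest p that 6 against 6 samples allow (exact permutation test, p = 0.00216, adjusted p = 0.00390). On read counts without length, these differences were 0.48, 0.45 and -0.08, and that of Dlst over Ogdh no longer passed. Between eWAT and iWAT, eWAT minus iWAT, Idh3b over Idh3a differed by 0.04 (exact permutation test, p = 0.667, adjusted p = 0.667). Idh3g over Idh3a and Dlst over Ogdh differed by -0.94 and 0.38 (exact permutation test, p = 0.00216 and adjusted p = 0.00390 for both), and by -0.34 and 0.06 without length, of which the latter no longer passed.

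Within a depot, the 9 genes were high or low together in many samples. After each gene was centred on its depot mean, as log2(RPKM + 0.1), the mean of the 9 was lowest in eWAT 15, at -0.35, where 9 of 9 genes were below their depot mean and 8 were the lowest of the depot. That sample also had the highest macrophage markers and the lowest adipocyte markers of eWAT, with summed adipocyte markers of 8056 RPKM against 11683 or more in the others. Its fibroblast and preadipocyte markers were the highest of eWAT, at 177 RPKM, and its epididymis markers the second highest. Its endothelial markers were the lowest, at 77.7 RPKM. eWAT 8 had 9 of 9 genes below the mean as well, and eWAT 11, 13 and 14 had 0. In iWAT, sample 14 had the highest value of 7 genes. In BAT, sample 12, that with the most muscle reads, had 9 of 9 below the mean, with a mean of -0.09. The part of other cells in these differences was not tested. The share of all symbols below their depot mean in each sample was not counted, and these RPKM values carry no TMM factors.

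**Figure D5:**
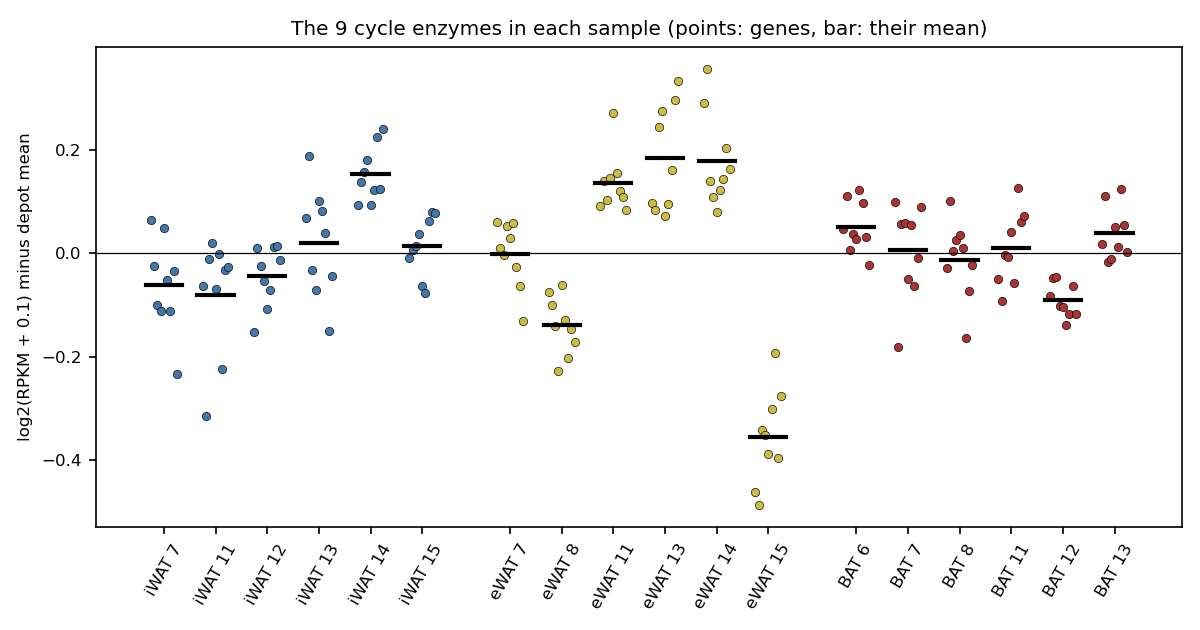
Log2(RPKM + 0.1) minus the depot mean (vertical axis) of the 9 genes in each of the 18 samples; points are genes, and the bar is their mean. The bar of eWAT 15 lies at -0.35, below those of the other 17 samples, and the bars of BAT lie between -0.09 and 0.05.

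Over the 18 samples, the Pearson correlation of these centred values between 2 of the 9 genes was between 0.52 (Idh3a and Mdh2) and 0.97 (Idh3b and Idh3g), with a median of 0.74 over 36 pairs. Without eWAT 15 the median was 0.55, from 0.29 to 0.96. These are descriptions, since the values of a sample share its library, its depth and its mix of cells. Correlations between pairs of other symbols were not computed for comparison. Among 10338 symbols whose mean RPKM reached 1 in each depot, symbols most like the mean of the 9 genes were Clybl (r = 0.957), Hadh (0.943), Mrpl10 (0.940) and Acat1 (0.935). Without eWAT 15 their correlations were 0.914, 0.872, 0.951 and 0.894. Within BAT alone, over 6 samples, Mrpl10 had 0.911 and Acat1 0.542, the highest and the lowest of these 4.

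Of the 9 genes, 6 share part of their span with another row, and whether strand was used in counting is not stated. The minus-strand Cs row held at most 5.03% as many reads as the Cs row used. Idh3b overlaps Nop56 and Nop56/Snord57 by 5 bp, which held at most 15.5% and 16.1% as many reads as Idh3b, and LOC100503507 by 582 bp, which held at most 8.73%. Idh3g overlaps Srpk3, with at most 0.457% as many reads, and Fh1 overlaps Kmo, with at most 1.14%. Ogdh overlaps AK085849 (at most 0.969%) and AK137754 (at most 0.0364%), and Dlst lies within the span of Prox2 (at most 2.64%). No other row lies over Idh3a, Suclg1 or Mdh2.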

How the data were processed

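RNA-seq was available for 6 iWAT adipocyte, 6 eWAT adipocyte and 6 BAT samples. Per the labels, RNA with a RIN above the authors' limit was made into libraries with a NEBNext Ultra kit, and the submitters' processing notes name cutadapt 1.16, HISAT2 2.1.0 and mm9. The study's methods instead name the Genomatix Genome Analyzer for expression values, and which of these made the counts is not settled here. The counting settings are not given in the sources used here. The authors deposited read counts per row, not normalized, and RPKM values, which were found to be the count over row length and over the reads of the sample. Those reads served as library size. Intervals of counting error were not needed at this depth, and reads were not collapsed by molecular identifiers.

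Merged rows (53445, iWAT and BAT) and transcripts (189660, eWAT) were joined by symbol. Where a symbol had several rows, that with the most reads was used. A row needed 10 reads or more in 6 samples or more and was tested with edgeR 4.0.16 (glmQLFit, glmQLFTest, TMM) in R 4.3.3, with Benjamini-Hochberg adjustment over all rows tested and a threshold of 0.05. iWAT and BAT were fitted alone (12 samples) and the eWAT comparisons over all 18. Standard errors were derived from the F statistic. In the fits per kilobase the log row length was added to the offset. Nothing in the labels says whether samples of a depot came from separate mice, so p-values measure the spread between these samples. Ratios were tested by exact permutation over samples (scipy 1.17.1), with adjustment over 9 tests. The code was tested on simulated data. The 9 genes and all gene lists were chosen with earlier results of these data known. Named were the 9 genes, from each list the genes with the largest and the smallest change (lists of up to 8 in full for BAT against iWAT), the 4 reported of the 5 symbols most like the 9, and rows overlapping them. Me3 and Ogdhl, which passed the read filter only through 1 or 2 depots, were left out of list counts. Some genes that this rule covers are not reported here and were left out of the counts of their lists. Alternatives were DESeq2 1.42.0, limma 3.58.1 on log2(RPKM + 0.1) or log2(RPKM + 1), other filters, scalings and transcripts, a block on the title number, and leaving out samples. Scaling without TMM or by shared rows, the RefSeq transcript, and the omission of eWAT 14 and 15 or of BAT 8 and 12 were added after seeing the data.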

Additional observations from a re-analysis of the deposited data

How the results depend on the processing

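For the 9 genes, 198 of 198 alternative values between iWAT and BAT, and 234 of 234 between eWAT and BAT, kept their direction and stayed called. Between iWAT and eWAT, 202 of 234 kept their direction and stayed called or, for Mdh2, stayed not called. Of the rest, 3 lost the call, 1 gained it and 28 reversed. The values below are log2 differences, eWAT over iWAT. Per kilobase, Cs gave 0.32, Idh3a 0.18, Idh3b 0.21, Ogdh 0.32, Dlst 0.69, Suclg1 0.55 and Mdh2 0.65, with 2 genes called lower and 9570 symbols called in all. With the highest-RPKM transcript per kilobase, Cs gave 0.15, Idh3a 0.37, Ogdh 1.07, Dlst 0.74, Suclg1 0.56, Fh1 0.0631 and Mdh2 0.56, with 1 gene called lower and 10964 symbols called. With limma and a pseudocount of 0.1, Cs gave 0.72, Idh3a 0.58, Idh3b 0.62, Ogdh 0.72, Dlst 1.09, Suclg1 0.96 and Mdh2 1.05, with 1 gene called lower and 9643 symbols called. With a pseudocount of 1 these genes, in the same order, gave 0.71, 0.57, 0.60, 0.70, 1.06, 0.92 and 1.04, with 1 gene called lower and 9492 symbols called. These fits divide by row lengths that differ between the files, and all plain count fits kept the 8 calls. Shared rows alone, which test 5733 rows, gave 737 calls between iWAT and eWAT and 3888 between eWAT and BAT, against 4714 and 12916. With the TMM factors of shared rows, the median of all symbols moved to -0.15 between eWAT and BAT. On read counts without length, Dlst over Ogdh differed by -0.0838 between BAT and eWAT and by 0.0595 between eWAT and iWAT. Mdh2 between iWAT and eWAT was called without eWAT 13, at -0.29, in a range of -0.29 to -0.17 over single samples left out, and the count of genes lower in eWAT was then 9 in place of 8. Idh3g over Idh3a between BAT and iWAT ranged from 0.0617 to 0.181, and it passed without iWAT 11. Samples of different depots share title numbers. The mean correlation of their deviations was 0.04, -0.04 and -0.10 for iWAT and BAT, eWAT and BAT, and iWAT and eWAT. No more than 1 pair of each was above 0.1, and not every sample correlated best with its own number. Such correlations cannot show whether equal numbers mark the same mouse, which no label states. With the title number as a replicate block, 11711, 11400 and 3154 rows were called, against 13337, 12916 and 4714, and the members kept 9, 9 and 8 calls. Over 12 samples left out singly, 12307 to 13291, 12087 to 12782 and 3883 to 5156 were called. Depth does not limit the 9 genes, whose rows had 1533 or more reads.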

Other observations

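The 2 beta subunits of succinyl-CoA ligase shifted in proportion between the depots, a comparison chosen after the values were seen and therefore given without a test. The RPKM ratio of Sucla2, the subunit of the ATP-forming enzyme, over Suclg2, that of the GTP-forming enzyme, was 1.68, 2.10 and 2.28 (lowest, median and highest of 6 samples) in iWAT. In BAT it was 8.38, 10.3 and 10.9, and in eWAT, on other row lengths, 2.25, 2.62 and 3.17. BAT samples lay above those of both white depots. Suclg1 over Suclg2 moved likewise, from 0.954, 1.29 and 1.44 in iWAT to 4.98, 5.58 and 6.64 in BAT.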
